A study of Mus musculus with 12 samples.

Results

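Postmeiotic transcription factors are regulators known for switching on genes in haploid male germ cells, and 7 of their genes were followed here: Crem, Fhl5, Rfx2, Sox5, Sox30, Tbpl1 and Taf7l. The members were chosen by name. Every contig of the count table that the deposited symbols assign to one of the 7 genes was taken, where a contig is 1 reference transcript to which reads were assigned. This gave 16 contigs of 12114 in the table: 5 of Sox5, 3 of Crem, 2 each of Fhl5, Rfx2 and Tbpl1, and 1 each of Sox30 and Taf7l. All 16 passed the filter on low counts, as did 11831 contigs in all, and together they held 15263 reads.

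The samples were 12 libraries of native RNA from sorted spermatids of adult mice, read by nanopore direct RNA sequencing, in which each read comes from 1 RNA molecule. Meiosis yields round spermatids (RS), and in elongated spermatids (ES) the nucleus is condensed and the flagellum has formed. Males were Tent5c wt/wt (wild type) or Tent5c dcat/dcat (dcat), the latter with a TENT5C that has lost its catalytic activity, TENT5C being an enzyme that lengthens poly(A) tails. The 4 groups, RS and ES of each genotype, had 3 libraries each, and every library pooled RNA of 3 mice, so that the spread between libraries is the spread between pools. Only polyadenylated RNA was read.

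In round spermatids CREM, a DNA-binding protein of the CREB family, activates many postmeiotic genes through cAMP response elements, and its coactivator FHL5 (also called ACT) stands in for the phosphorylation that such factors otherwise need. RFX2 binds X-box motifs and is needed for spermatids to go on to elongate, and SOX5 and SOX30 are HMG-box proteins, SOX30 being required for round spermatids to mature. TBPL1 (TRF2) and TAF7L are relatives of general transcription factors, of the TATA-binding protein and of the TFIID subunit TAF7, and both are known for roles in spermatid development. Transcription stops as the nucleus condenses, so the messages of ES are largely ones made earlier and stored.

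The sequences that set the contigs apart help to read what follows, and those of 2 genes are shown, with the promoters of the genes that were higher in ES. All come from build GRCm38.p6. Rfx2-201 differs from Rfx2-202 mainly by a coding exon of 75 nt, exon 6 of 18, at chr17:56799250-56799324 on the minus strand. It is given with 10 nt of the neighbouring exons on each side, and the capitals mark the exon:
Rfx2-201 exon 6: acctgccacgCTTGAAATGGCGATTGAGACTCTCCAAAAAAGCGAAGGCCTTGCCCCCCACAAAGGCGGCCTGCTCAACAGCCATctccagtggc
The Tbpl1 contigs, on the minus strand of chromosome 10, share a coding sequence of 558 nt, begin at different first exons 491 nt apart and end 1502 nt apart. The 3′ untranslated region has 435 nt in Tbpl1-201 and 1937 nt in Tbpl1-202. Short windows near each 3′ end are shown, the first from chr10:22705381-22705405 and the second from chr10:22703887-22703916, with the poly(A) signal AATAAA in capitals:
Tbpl1-201: tgaatgtgcacaAATAAAagtttgg
Tbpl1-202: attttttatataAATAAAaactgtgaatat
This hexamer lay in the last 50 nt of 6 of the 16 contigs (Sox5-201, Sox5-214, Sox30-201, Taf7l-201 and both of Tbpl1) and in 61.1% of the 11344 contigs whose sequence was read. The 2 contigs of Fhl5 have the same ends and the same coding sequence of 852 nt, and differ by an exon of 65 nt before it (chr4:25241886-25241950), which only Fhl5-202 holds.

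Fhl5 and Sox30 were the genes whose reads were higher in ES, and the 250 bases before their RefSeq start sites are printed with each ACAAT, a core of the motif that SOX proteins bind, in capitals. The first window is chr4:25242853-25243102 on the minus strand and the second chr11:45980060-45980309 on the plus strand:
Fhl5: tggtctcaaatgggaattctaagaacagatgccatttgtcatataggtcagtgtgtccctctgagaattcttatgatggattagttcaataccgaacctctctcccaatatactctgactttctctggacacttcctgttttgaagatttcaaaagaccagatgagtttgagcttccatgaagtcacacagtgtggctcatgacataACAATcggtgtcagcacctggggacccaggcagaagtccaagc
Sox30: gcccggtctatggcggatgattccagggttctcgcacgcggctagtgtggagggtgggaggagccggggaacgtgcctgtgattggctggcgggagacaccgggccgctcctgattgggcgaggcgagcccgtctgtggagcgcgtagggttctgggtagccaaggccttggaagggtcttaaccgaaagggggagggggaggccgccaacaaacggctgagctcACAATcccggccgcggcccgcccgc
Each window held 1 match to ACAAT on either strand, and 27.7% of 32851 RefSeq promoter windows of that length held at least 1. Neither held, on either strand, the CRE core TGACG (17.8% of windows), the full site TGACGTCA, which contains that core (1.55%), the X-box core GTTGCC (10.4%) or TATAAA (12.4%). GTTGCC stood in the windows of Rfx2, with TGACG, and of the inner start of Sox5, with ACAAT. The Taf7l window held ACAAT and TATAAA, and those of Tbpl1 and of a second start of Fhl5 held no match. No window was read for Crem.

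Library totals ran from 337287 counts, in wild-type ES library 3, to 1359427. The 16 contigs took 0.207% to 0.216% of the counts of an RS library and 0.111% to 0.136% of those of an ES library. Summed levels of 8 elongated spermatid genes were 19657 to 41975 CPM (reads per 1000000 reads of the scaled library) in RS and 212585 to 281116 CPM in ES. Those of 7 round spermatid genes were 2198 to 2394 CPM in RS and 1099 to 1191 CPM in ES, so both labels were borne out by their markers. Of 12 Leydig cell genes 7 had contigs, at 69.0 to 129 CPM in RS and 289.8 to 1069 CPM in ES, and of 14 Sertoli cell genes 6 had contigs, at 16.0 to 45.9 CPM in RS and 198 to 399 CPM in ES. The defining Leydig genes Star and Lhcgr and the Sertoli genes Sox9, Amh, Wt1 and Gata4 were not analysed here. Of 14 meiotic genes 12 had contigs, at 1430.5 to 1690.4 CPM in RS and 1276 to 1495 CPM in ES. The part of these other cells in the differences between stages was not tested. In bulk libraries fewer cells of a type and less RNA per cell cannot be told apart.

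The first comparison asked how the messages of these regulators differ between the 2 stages. Fhl5 and Sox30 were higher in ES of both genotypes. Crem and Tbpl1 were lower in ES of both genotypes, and Rfx2 was lower in part of its contigs. Sox5 and Taf7l did not pass the test at the level of the gene. Among single contigs of wild-type spermatids, 3 of 16 were called higher in ES and 4 lower by edgeR's quasi-likelihood test, at an adjusted p-value (q, Benjamini-Hochberg over all 11831 contigs) of at most 0.05. Over all contigs 23.8% were called higher and 16.5% lower, 40.3% in either direction. In dcat spermatids 3 were called higher and 5 lower, against 24% and 16.9% of all contigs, 41% in either direction. The share of members called was thus near that of all contigs. Groups did not overlap for 9 of the 16 in each genotype, against 53.3% of all contigs in wild type and 50.9% in dcat. The median log2 change of the 16 contigs was -0.54 in wild type and -0.53 in dcat, and that of all contigs -0.24 and -0.18.

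These counts depend on how libraries are scaled, since a few late messages take up much of an ES library. The main values use TMM factors, which allow for that. With totals alone the median over all contigs moved to -0.96 in wild type and -0.85 in dcat, and 2 members were called higher and 8 lower in wild type, 3 and 9 in dcat, while the contigs called in all rose from 4766 to 7364 in wild type and from 4849 to 6959 in dcat. Over all contigs the share of calls that were higher went from 59.0% to 26.5% in wild type and from 58.7% to 28.2% in dcat. The contigs that gained a call with totals alone were Crem-228 and Taf7l-201 in both genotypes, Rfx2-201 and Tbpl1-202 in wild type, and Rfx2-202 and Sox5-204 in dcat, all of them lower, and Sox30-201 lost its call in wild type. All changes below are relative to the TMM scale, and every level is in CPM on that scale.

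**Figure D1:**
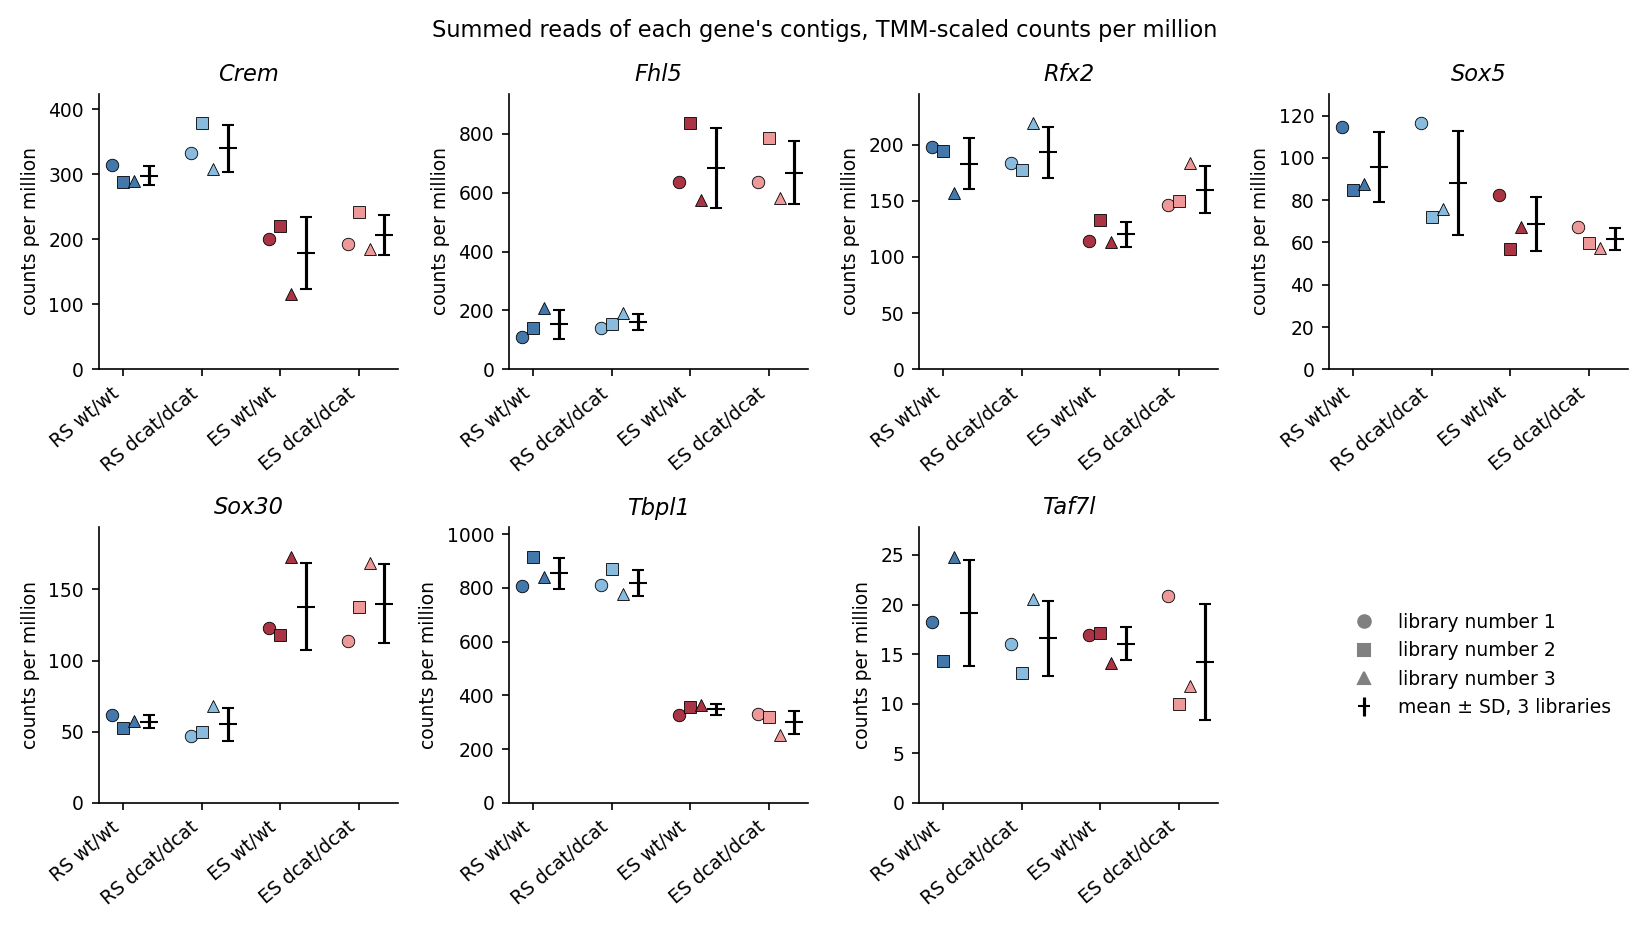
Summed reads of each gene in TMM-scaled CPM (linear axes from 0), by group. Points are libraries, shaped by their number, and bars give the mean ± SD of 3 libraries. Fhl5 and Sox30 lie higher in all ES libraries than in any RS library, and Tbpl1 and Crem lie lower.

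Fhl5 had the largest rise among the members. Fhl5-202 stood at 41.5, 71.5 and 86.3 CPM in the 3 wild-type RS libraries and at 469, 504 and 318 CPM in wild-type ES. In dcat it stood at 57.7, 65.6 and 95.6 CPM in RS and 422, 459 and 321 CPM in ES. All 6 ES libraries were above all 6 RS libraries. The rise was 6.47-fold in wild type (log2 2.69, SE 0.29, edgeR q = 5.9e-06) and 5.44-fold in dcat (log2 2.44, SE 0.29, edgeR q = 1.6e-05). Fhl5-201, which lacks the 65-nt exon, read 69.8, 70.3 and 121 CPM in wild-type RS and 169, 333 and 258 CPM in wild-type ES. Its dcat levels were 81.2, 87.9 and 95.6 CPM in RS and 216, 327 and 262 CPM in ES. The stages again did not overlap, with rises of 2.88-fold in wild type (edgeR q = 0.00054) and 3.03-fold in dcat (edgeR q = 0.00039). Both rises kept their call under all 15 alternatives for each contig and genotype, with the log2 change of Fhl5-202 between 1.98 and 2.92 in wild type. Those of Fhl5-201 were lowest with totals alone, at 0.82 in wild type and 0.93 in dcat.

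Crem, the partner of FHL5, went the other way. Crem-204, at chr18:3266356-3299559 on the minus strand, stood at 149, 124 and 129.5 CPM in wild-type RS against 82.4, 89.4 and 56.5 CPM in wild-type ES. In dcat it was at 158, 152 and 131 CPM in RS and 74.2, 112 and 65.8 CPM in ES. The ranges of the stages did not overlap in either genotype, and the contig fell by 0.79 on the log2 scale in wild type (SE 0.24, edgeR q = 0.015) and by 0.82 in dcat (SE 0.23, edgeR q = 0.012). The wild-type call was lost without wild-type ES library 1 (q = 0.067) or 3 (q = 0.077), and the dcat call without dcat ES library 3 (q = 0.081). Crem-222 is annotated as a shorter transcript of 978 nt whose end lies 1232 nt before that of Crem-204. Its annotation has a 3′ untranslated region of 0 nt and no AATAAA in the last 50 nt. Whether the reads assigned to this contig come from a separate short transcript was not tested. Crem-222 stood at 34.9, 41.7 and 36.7 CPM in wild-type RS and 21.1, 13.3 and 14.1 CPM in wild-type ES. In dcat its levels were 45.9, 57.7 and 34.6 CPM and 16.2, 15.0 and 10.1 CPM. It fell by 1.19 (edgeR q = 0.0089) and 1.75 (edgeR q = 0.00071) on the log2 scale, and only the wild-type call was lost when a library was left out, namely wild-type ES library 2 (q = 0.086). No ES library held over 10 reads of it.

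Crem-228, the longest of the Crem contigs at 2662 nt, shares its 3′ end with Crem-204 to within 2 nt and starts 38120 nt before it. Its levels were 131, 123 and 124 CPM in wild-type RS and 97.2, 118 and 45.9 CPM in wild-type ES. They were 129, 169 and 143 CPM in dcat RS and 102, 115 and 109.8 CPM in dcat ES. The stages did not overlap in either genotype, but the change missed the threshold, at log2 -0.49 in wild type (SE 0.25, edgeR q = 0.14) and -0.43 in dcat (SE 0.25, edgeR q = 0.18). Among contigs with at least 10 counts in every library both changes passed, at log2 -0.81 (edgeR q = 0.010) and -0.70 (edgeR q = 0.019). The scaling factors were recomputed on those contigs, and every member tested moved lower. Sox30-201 in wild type, for 1, went from log2 1.25 to 0.93 and Fhl5-202 from 2.69 to 2.37. Summed over its contigs, Crem stood at 298 ± 14.8 CPM (SD, n = 3) in wild-type RS and 340.2 ± 35.9 CPM in dcat RS. In ES it stood at 179 ± 55.3 CPM in wild type and 207 ± 30.8 CPM in dcat. The gene fell by 0.59 on the log2 scale in wild type (95% interval -0.99 to -0.19, edgeR q = 0.016) and by 0.61 in dcat (edgeR q = 0.011). The lowest library was wild-type ES library 3, the shallowest of all, with 33 Crem reads.

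Rfx2, a regulator of genes for cilia and flagella, had smaller differences. Rfx2-202, the contig without the 75-nt exon, stood at 129, 138 and 109 CPM in wild-type RS and 82.4, 89.4 and 74.2 CPM in wild-type ES. In dcat it stood at 119.7, 122 and 143 CPM in RS and 109, 122 and 135 CPM in ES. It fell by 0.60 on the log2 scale in wild type, with no overlap of the stages (SE 0.19, edgeR q = 0.023), while the dcat stages overlapped at log2 -0.07 (SE 0.19, edgeR q = 0.80), or -0.73 and called with totals alone (q = 0.0051). The wild-type call was lost without wild-type RS library 2 (q = 0.075), wild-type ES library 1 (q = 0.12), wild-type ES library 2 (q = 0.076) or wild-type ES library 3 (q = 0.083). Rfx2-201, which holds the exon, read 69.0, 56.0 and 47.3 CPM in wild-type RS and 31.7, 43.8 and 38.8 CPM in wild-type ES. Its dcat levels were 64.1, 55.1 and 76.6 CPM in RS and 37.1, 27.5 and 49.0 CPM in ES. The stages did not overlap in either genotype. Among contigs with at least 10 counts in every library, whose recomputed scale moved all members lower, the wild-type change was log2 -0.90 (q = 0.0085). In the main fit it was -0.59 in wild type (SE 0.28, edgeR q = 0.11) and -0.77 in dcat (SE 0.27, edgeR q = 0.035). That dcat call was lost without dcat RS library 1 (q = 0.060) or 3 (q = 0.11) or dcat ES library 1 (q = 0.079) or 2 (q = 0.16), and with DESeq2 (q = 0.055) or only the groups compared (q = 0.069). Without the 4 libraries numbered 1, left out after the data were seen, neither call held (q = 0.097 for Rfx2-202 in wild type and 0.0504 for Rfx2-201 in dcat). Summed over both contigs the gene fell by 0.48 on the log2 scale in wild type (95% interval -0.86 to -0.10, edgeR q = 0.036), and its dcat change was -0.16 (95% interval -0.52 to 0.21, edgeR q = 0.48).

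Sox30, encoded on chromosome 11 (chr11:45980310-46017994, plus strand), had a single contig and rose. Its levels were 61.5, 52.4 and 57.4 CPM in wild-type RS and 123, 118 and 173 CPM in wild-type ES. They were 47.0, 49.8 and 68.4 CPM in dcat RS and 114, 137 and 169 CPM in dcat ES. All ES libraries exceeded all RS libraries, by 2.38-fold in wild type (log2 1.25, SE 0.24, edgeR q = 0.00073) and 2.53-fold in dcat (log2 1.34, SE 0.24, edgeR q = 0.00042). With totals alone as the scale, the wild-type rise was log2 0.54 and missed the threshold (q = 0.077), and the dcat rise was log2 0.68 (q = 0.035).

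Sox5, also of the SOX family, had 5 contigs with 84 to 250 reads each over all libraries. They include the short Sox5-204, which starts inside the gene at position 143947106 of chromosome 6, on the minus strand, and long forms that start at 144209452 to 144209568. None of the 5 passed the test in either genotype, with log2 changes from -1.73 to 0.32 in wild type and from -1.07 to 0.39 in dcat. Sox5-204 stood at 60.9, 19.7 and 14.0 CPM in dcat RS and 27.8, 4.99 and 11.8 CPM in dcat ES, ranges that overlap. The change of Sox5-204 in dcat was log2 -1.07 (SE 0.66, edgeR q = 0.21), and with the replicate number as a block it passed, at log2 -0.99 with a block shared by all groups (edgeR q = 0.027) and -0.996 within each genotype (edgeR q = 0.034). Sox5-202 in wild type was at log2 -1.73 (edgeR q = 0.30), and at -1.59 with the shared block (edgeR q = 0.038) but -1.63 within each genotype (edgeR q = 0.0595). Sox5-214 and Sox5-205, long forms, had 3 to 19 and 0 to 16 reads in a library. The summed gene stood at 95.6 ± 16.6 CPM in wild-type RS, 88.1 ± 24.6 CPM in dcat RS, 68.9 ± 12.8 CPM in wild-type ES and 61.5 ± 5.1 CPM in dcat ES (SD, n = 3 each). Its change was log2 -0.37 in wild type (95% interval -0.81 to 0.08, edgeR q = 0.16) and -0.40 in dcat (95% interval -0.85 to 0.05, edgeR q = 0.13).

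Tbpl1, the relative of the TATA-binding protein, had the steepest fall among the member contigs that were called. Tbpl1-201, with the short 3′ untranslated region, stood at 622, 571 and 512 CPM in wild-type RS and 224, 146 and 173 CPM in wild-type ES. In dcat its levels were 598, 556 and 448 CPM in RS and 213, 125 and 94.6 CPM in ES. No ES library reached the lowest RS library. The level was 3.13-fold lower in ES of wild type (log2 -1.65, SE 0.26, edgeR q = 0.00015) and 3.72-fold lower in dcat (log2 -1.90, SE 0.26, edgeR q = 5.4e-05). Tbpl1-202, with the long one, stood at 184, 346 and 328 CPM in wild-type RS and 101, 211 and 191 CPM in wild-type ES. Its dcat levels were 210.5, 313 and 327 CPM in RS and 116, 195 and 157 CPM in ES. In wild type the stages overlapped, since RS library 1 was below ES libraries 2 and 3, and the change of log2 -0.77 missed the threshold (SE 0.31, edgeR q = 0.058). With the replicate number as a block it passed, at log2 -0.77 with a block shared by all groups (edgeR q = 0.00034) and -0.78 within each genotype (edgeR q = 0.0011). It also passed without wild-type RS library 1, at log2 -1.02 (q = 0.013). Among contigs with at least 10 counts in every library, whose recomputed scale moved all members lower, it passed at -1.08 (q = 0.0091). In dcat the stages did not overlap and the contig fell by 0.86 (SE 0.31, edgeR q = 0.035). That call was lost without dcat RS library 2 (q = 0.093) or 3 (q = 0.098) or dcat ES library 1 (q = 0.12) or 3 (q = 0.10).

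Summed over both contigs, Tbpl1 stood at 854 ± 56.6 CPM in wild-type RS, 818 ± 47.6 CPM in dcat RS, 349 ± 20.6 CPM in wild-type ES and 300.1 ± 42.3 CPM in dcat ES (SD, n = 3 each). The spread between pools was small beside the difference of the stages. The gene fell by 1.18 on the log2 scale in wild type (95% interval -1.51 to -0.86, edgeR q = 3.0e-06) and by 1.34 in dcat (95% interval -1.67 to -1.01, edgeR q = 6.5e-07).

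Taf7l, an X-linked gene for a TFIID subunit (chrX:134460118-134476490, minus strand), was read 167 times in all. Its counts were 22, 12 and 42 in wild-type RS, 15, 10 and 25 in dcat RS, 8, 9 and 4 in wild-type ES and 9, 4 and 7 in dcat ES. Scaled, these were 18.3, 14.3 and 24.8 CPM in wild-type RS and 16.9, 17.1 and 14.1 CPM in wild-type ES. They were 16.0, 13.1 and 20.6 CPM in RS of dcat and 20.9, 9.99 and 11.8 CPM in ES of dcat. The stages overlapped in both genotypes, at log2 -0.26 in wild type (SE 0.37, edgeR q = 0.59) and -0.25 in dcat (SE 0.38, edgeR q = 0.62). With totals alone the changes were log2 -0.98 (edgeR q = 0.029) and -0.92 (edgeR q = 0.045), both called. A floor of 3 reads equals 1.77 to 10.6 CPM. Such floors and counts cover counting error only.

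**Figure D2:**
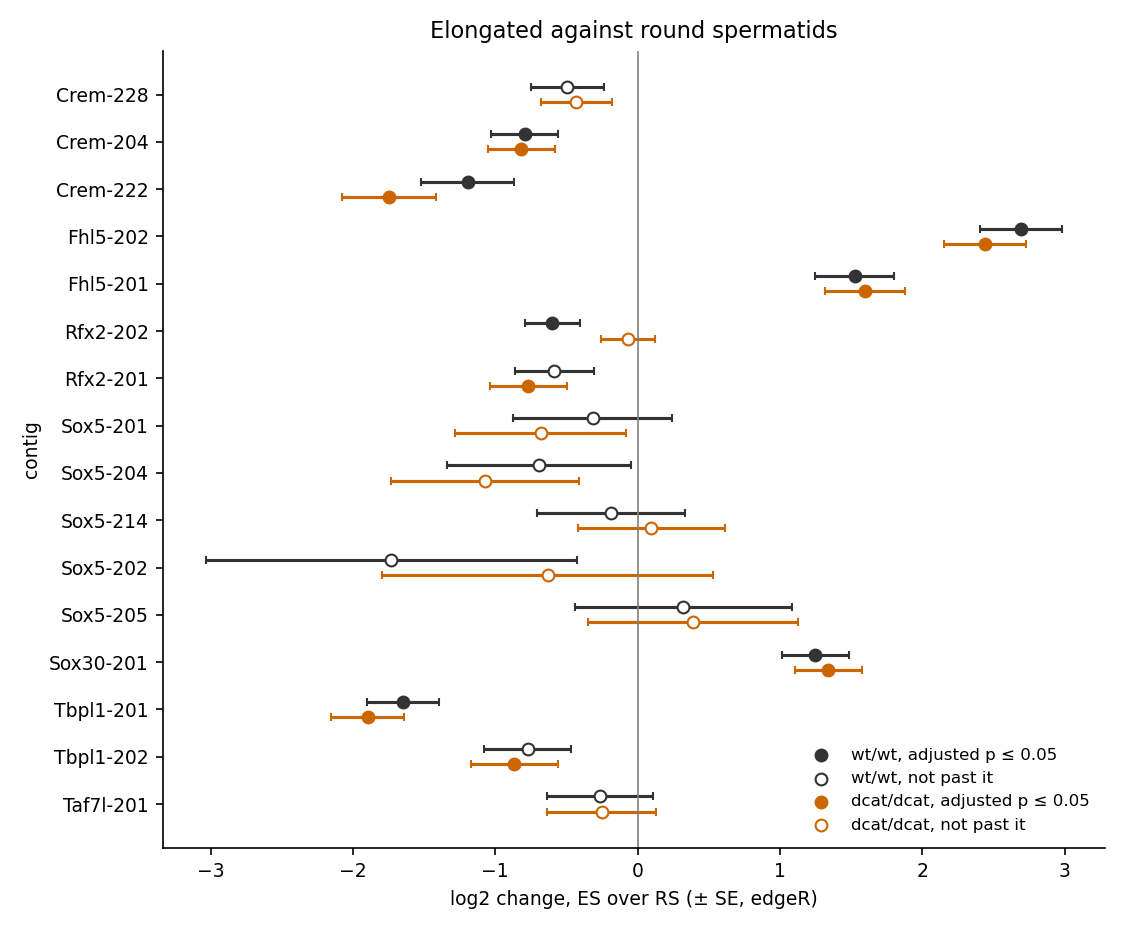
Log2 change of each of the 16 contigs in ES over RS, with SE, in wt/wt (black) and dcat/dcat (orange). Filled points passed the adjusted p threshold of edgeR. Both Fhl5 contigs and Sox30-201 lie to the right of 0, and Tbpl1-201, Crem-204 and Crem-222 to the left, in both genotypes.

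The order of the 4 group means was the same for Fhl5 and Sox30 in that both ES groups stood above both RS groups. Fhl5 summed over its contigs stood at 684 ± 136 CPM in wild-type ES, 669 ± 106 CPM in dcat ES, 161 ± 27.0 CPM in dcat RS and 154 ± 49.2 CPM in wild-type RS (SD, n = 3 each). Sox30 stood at 139.9 ± 27.7 CPM in dcat ES, 138 ± 30.6 CPM in wild-type ES, 57.1 ± 4.5 CPM in wild-type RS and 55.1 ± 11.6 CPM in dcat RS. For Crem, Sox5 and Tbpl1 both RS groups stood above both ES groups. In each of these orders the genotypes of 1 stage were neighbours, and edgeR called none of these genes between genotypes. Their means lay further apart than the larger of the 2 SDs for Crem in RS and Tbpl1 in ES, and closer in the other cases. Rfx2 stood at 193 ± 22.6 CPM in dcat RS, 183 ± 22.7 CPM in wild-type RS, 160.0 ± 20.9 CPM in dcat ES and 120.1 ± 11.3 CPM in wild-type ES.

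A further comparison asked on which transcript of a gene the reads fell, as a share of the reads of that gene. The share could be tested for Crem, Fhl5, Rfx2 and Tbpl1, and not for Sox5, which had 19 reads in wild-type ES library 3, under the minimum of 20. An exact two-sided permutation test moved stage labels within genotype (400 arrangements, smallest possible p 0.005), with q over 3840 contigs of 1333 genes, of which 10.7% were called. The stage groups below are 6 libraries each. The contigs of Fhl5 and of Rfx2 share most of their sequence (1106 and 3275 nt). Reads start at the 3′ end, so that a short read may not reach the part that tells them apart. The same holds for Crem-228 and Crem-204, which share 2144 nt and end 2 nt apart. Crem-222 shares 765 nt with each of these, and the Tbpl1 contigs share 1039 nt and end 1502 nt apart. The part of read length in these shares was not tested.

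For Fhl5, reads shifted to the transcript with the 65-nt exon. In RS the share of Fhl5-202 was 37.3, 50.4 and 41.6% in wild type and 41.5, 42.7 and 50% in dcat. In ES it was 73.5, 60.2 and 55.2% in wild type and 66.2, 58.4 and 55.1% in dcat. All 6 ES libraries were above all 6 RS libraries. The mean went from 43.9 ± 5.2% to 61.4 ± 7.2% (SD, n = 6), by 17.5 percentage points (exact permutation p = 0.005, the smallest possible, q = 0.047). The q passed the threshold narrowly, and it did not pass when any of the 12 libraries was left out (q from 0.052 to 0.089, difference from 14.9 to 19.4 points). Those tests allow fewer arrangements, and a q at or near the smallest possible p depends on how many other contigs reach that p. A call lost in them need not mean a smaller shift of Fhl5. Swapping stage labels within same-numbered pairs only, an alternative added after the data were seen, gave q = 0.12. Fhl5-202 was higher in ES in 6 of 6 pairs, and the smallest possible p of that test is 0.031. Whether it could be called thus depended on how many other contigs reached that p.

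For Tbpl1, the share of the long transcript was higher in ES without passing the threshold, and it also differed with the library number. The share of Tbpl1-202 was 22.8, 37.7 and 39.0% in wild-type RS and 26.0, 36.0 and 42.2% in dcat RS. In ES it was 31.2, 59.0 and 52.4% in wild type and 35.2, 60.9 and 62.4% in dcat. Library 1 was the lowest of its group in all 4 groups. The share was higher in ES than in the RS library of the same number and genotype in 6 of 6 pairs, and the mean went from 34.0 ± 7.7% to 50.2 ± 13.7%, by 16.2 points (exact permutation p = 0.05, q = 0.21).

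In Crem the share of the short Crem-222 was 13.1 ± 1.7% in RS and 8.13 ± 2.7% in ES (SD, n = 6), a difference of -4.94 points in 6 of 6 same-number pairs (exact permutation p = 0.01, q = 0.073). Crem-228 differed by 7.35 points in the other direction (exact permutation p = 0.045, q = 0.20) and Crem-204 by -2.41 points (exact permutation p = 0.32, q = 0.57). Rfx2-202 took 67.5 ± 2.8% of Rfx2 reads in RS and 72.4 ± 5.7% in ES (exact permutation p = 0.07, q = 0.25). None of these 4 differences passed the threshold.

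**Figure D3:**
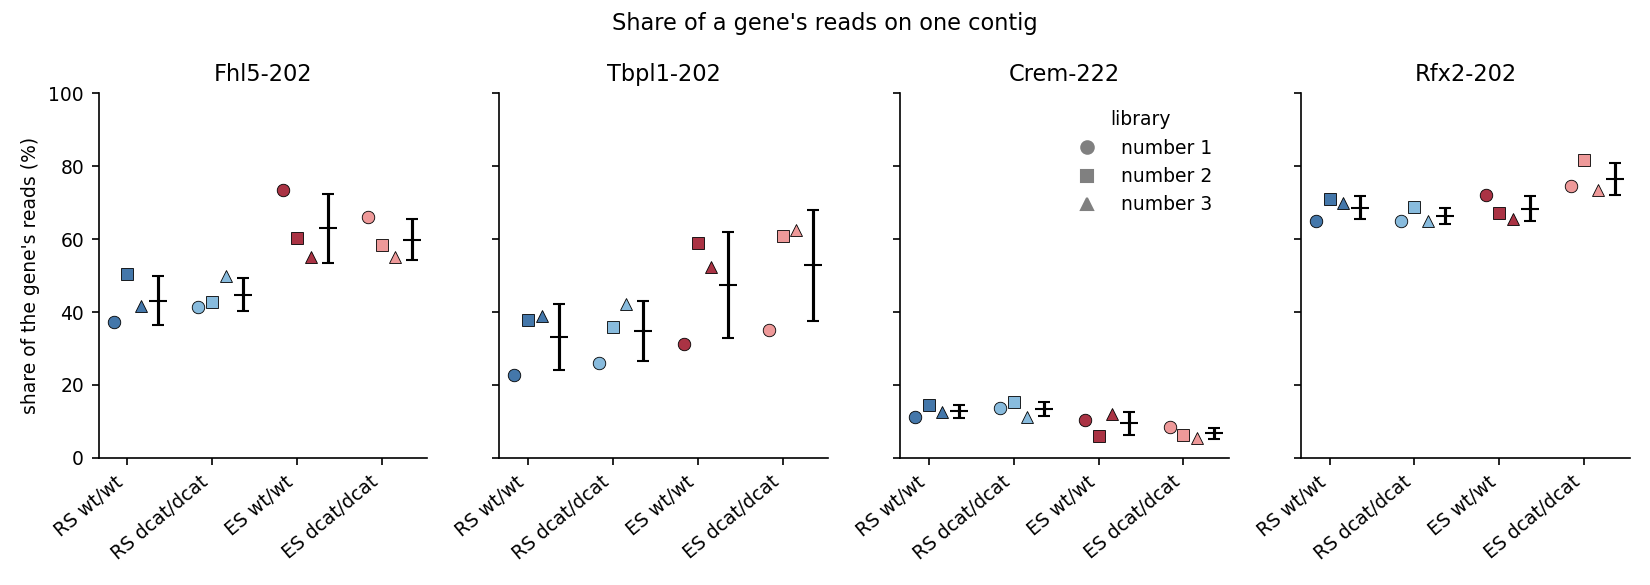
Share of a gene's reads (%) on Fhl5-202, Tbpl1-202, Crem-222 and Rfx2-202 in each library, by group, with the mean ± SD of 3 libraries. Fhl5-202 is higher in all ES libraries than in any RS library, and Tbpl1-202 is lowest in library number 1 (circles) of every group.

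The Sox5 contigs followed the library number too. Sox5-202 had 1 of 315 Sox5 reads in the 4 libraries numbered 1, 32 of 180 in those numbered 2 and 65 of 293 in those numbered 3. Its counts were 1, 0, 0 and 0 in the number 1 libraries, and its only other count of 0 was in wild-type ES library 3. Sox5-201 and Sox5-204 made up 41.9% and 44.1% of the Sox5 reads in number 1, against 20% and 22.2% in number 2 and 28.0% and 23.5% in number 3. Each number covers RS and ES of both genotypes. Each library is a pool of 3 mice, and both stages were sorted from the same mice. The cause was not tested.

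**Figure D4:**
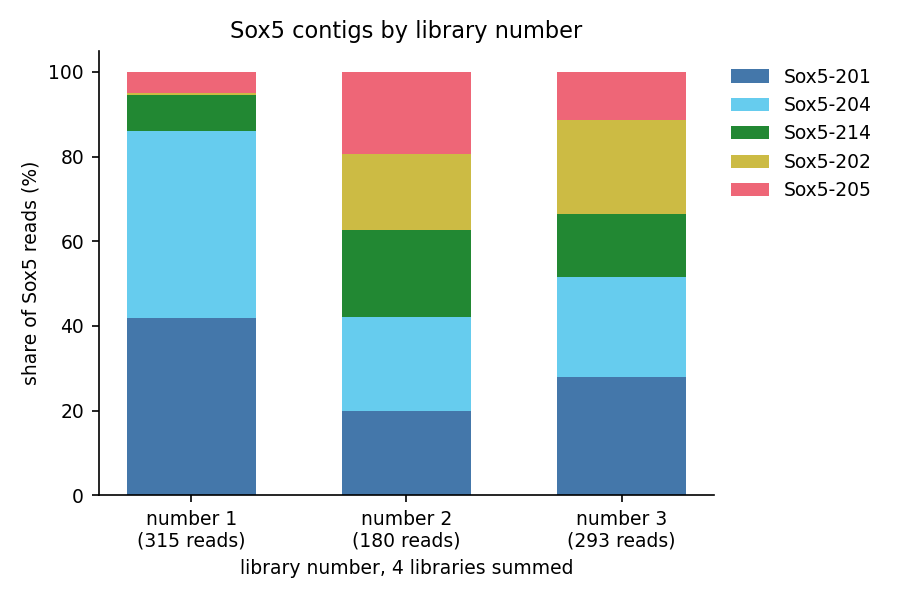
Share of Sox5 reads (%) on each of 5 contigs, summed over the 4 libraries of each number. Sox5-202 takes 0.32% in number 1, 17.8% in number 2 and 22.2% in number 3.

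The next comparison asked whether the catalytically inactive TENT5C alters these messages. Across the 16 contigs no difference between dcat and wild type passed the test in RS or in ES. The only contig with separated groups was Rfx2-202 in ES, which was higher in all 3 dcat libraries. By edgeR 0 of 16 members were called in RS and 0 in ES, where 0% of all 11831 contigs were called in each stage. At an unadjusted p under 0.05 edgeR found 0 members in RS and 1 in ES, against 98 contigs (0.828%) and 356 contigs (3.01%) in all. DESeq2 called 0 members in either stage, and with the replicate number as a block shared by all groups 3 contigs in RS and 1 in ES were called, none of them members. The log2 differences of members lay between -0.27 and 0.28 in RS and between -0.60 and 0.82 in ES, where the extremes were Sox5-201 and Sox5-202.

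Rfx2-202 in ES stood at 82.4, 89.4 and 74.2 CPM in wild type and 109, 122 and 135 CPM in dcat, without overlap. Among all contigs 7.66% had ES genotypes that did not overlap, and none of the 16 members in RS did, against 5.31% of all. The difference was 1.48-fold (log2 0.57, SE 0.20, edgeR q close to 1), and it kept its direction under all 15 alternatives, from log2 0.49 to 0.64. The lowest q among these was 0.399, by edgeR with a replicate block within each stage. In RS the same contig differed by log2 0.04 (SE 0.18). The stage by genotype interaction, which tests whether the genotype difference is larger in one stage, was log2 0.53 for Rfx2-202 (SE 0.27, edgeR q close to 1). The interaction was called for 0 of 16 members by edgeR and 0 by DESeq2, as for 0% of all contigs, and at an unadjusted p under 0.05 for 0 members and 170 contigs (1.4%).

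At the level of the gene the 95% intervals bound what these libraries leave possible. In ES the Tbpl1 difference was log2 -0.21 (95% interval -0.55 to 0.13), that of Fhl5 -0.03 (-0.49 to 0.43) and that of Sox30 0.08 (-0.38 to 0.55). Crem differed by log2 0.18 in ES (-0.25 to 0.60) and Rfx2 by 0.43 (0.02 to 0.83, edgeR q close to 1). The interval of Taf7l was the widest, from -1.13 to 0.74. In RS the estimates of the 7 genes ran from log2 -0.21 for Taf7l to 0.20 for Crem. The share of a gene's reads on one contig was called for 0 of the 9 contigs tested, and for 0% of all contigs, with differences of members from -3.45 to 3.49 points. The smallest exact permutation p among them was 0.26, for Rfx2.

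**Figure D5:**
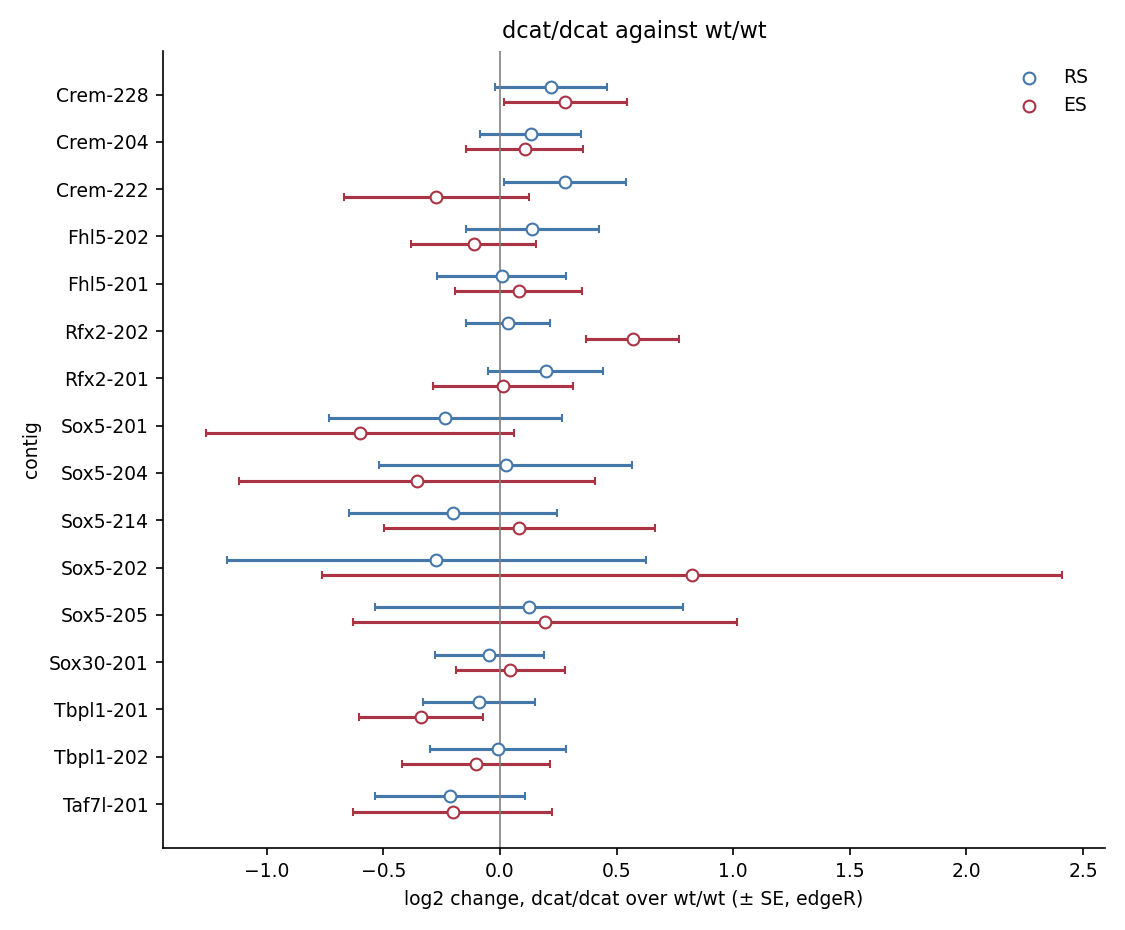
Log2 change of the 16 contigs in dcat/dcat over wt/wt, with SE, in RS (blue) and ES (red). No contig passed the adjusted p threshold of edgeR in either stage. Rfx2-202 in ES, at 0.57, is the contig farthest from 0 in units of its SE.

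Other genes of the same pathways were read from lists chosen by name, with earlier results of these data known. The first list held 11 genes known as CREM targets or lost without CREM. They code for protamines, transition proteins and parts of the sperm tail, and include Ace, Acr, Camk4 and Ldhc, which are none of these. Of their 19 contigs, 16 were called higher in ES and 1 lower, in each genotype. Over all contigs 23.8% were called higher in wild type and 24% in dcat. The median log2 change of the 19 contigs was 2.31 in wild type and 2.2 in dcat, while over all contigs it was -0.24 and -0.18. Prm1, Prm2, Tnp1, Tnp2, Odf1, Smcp and Akap4 were also among the elongated spermatid genes that checked the stage labels. The counts of this list thus partly repeat that check. Akap4, an anchor of the fibrous sheath, rose by log2 3.16 in wild type (SE 0.16) and Tnp2, a transition protein, by 2.95 (SE 0.24). The contig that fell, named here after its value was seen, was Acr, the acrosomal protease, at log2 -1.02 in wild type (edgeR q = 0.028) and -1.45 in dcat (edgeR q = 0.0042). With totals alone 14 were called higher and 2 lower in each genotype, namely Acr and 1 contig of Ldhc. That Ldhc contig, also named after its values were seen, was at log2 -0.70 in wild type and -0.63 in dcat with totals alone. In the main fit it was not called, at log2 0.02 and 0.04. The other Ldhc contigs were called higher in the main fit and not called with totals alone.

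The second list, of general transcription machinery with the haploid co-regulators Brdt and Kif17, was lower in part. Of 24 contigs of 16 genes, 10 were called lower and 1 higher in wild type, and 9 lower and 1 higher in dcat. Their medians were -0.79 and -0.65, and with totals alone 16 and 15 were called lower. Over all contigs 16.5% were called lower and 23.8% higher in wild type, and 16.9% and 24% in dcat. All 3 contigs of Tbp, the TATA-binding protein itself, were called lower in both genotypes, the most significant at log2 -1.41 in wild type (SE 0.31) and -1.74 in dcat (SE 0.31). Gtf2a1l, the germ cell form of a TFIIA subunit that binds TBPL1, fell by 1.24 (SE 0.17) and 1.19 (SE 0.17). The contig that rose, named after its value was seen, was Kif17, the kinesin known to carry FHL5 out of the nucleus, by log2 1.37 in wild type (edgeR q = 0.0019) and 1.54 in dcat (edgeR q = 0.00084), and with totals alone by 0.67 (q = 0.075) and 0.89 (q = 0.026). Taf7, the somatic relative of Taf7l, was not analysed here.

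Relatives of the members by protein domain had 7 contigs of 5 genes. In ES of each genotype 3 of these were called higher and 0 lower. Over all contigs 23.8% were called higher and 16.5% lower in wild type, and 24% and 16.9% in dcat. With totals alone 0 of the relatives were called higher, 2 lower in wild type and 0 lower in dcat. At an unadjusted edgeR p under 0.05 the number was also 3 in each genotype. The contigs that rose were one of Fhl4, a LIM-only relative of Fhl5, at log2 0.53 in wild type and 0.62 in dcat, and both contigs of Creb3l4, a CREB family gene, of which the more significant in wild type was at 0.75 and 0.60. With totals alone the same Fhl4 contig was at log2 -0.19 and -0.06 and the same Creb3l4 contig at 0.03 and -0.08. Of 13 contigs of 9 other germ cell transcription factors, 1 was called higher and 2 lower in each genotype, beside the same shares of all contigs. With totals alone 1 of them was called higher, and 7 lower in wild type and 6 in dcat. Spz1, a basic helix-loop-helix gene, rose by log2 1.96 and 2.13, and Ovol2, a zinc finger gene, and Hsf5, a heat shock factor, fell by 1.04 and 1.01 in wild type. No contig of the 4 lists was called between genotypes by edgeR in either stage. At an unadjusted p under 0.05 there were 2, both in ES and both of the list of machinery and co-regulators.

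The genes whose pattern across the 12 libraries was most like that of a member were found by Pearson's r on log2 CPM over 3136 to 3138 contigs with at least 500 reads, as a description. The libraries share stage and depth, so that any gene with a strong stage difference correlates. For the most abundant contig of Fhl5 these were Cabs1, H2al2a and Prss58 (r = 0.998, 0.997 and 0.997), and for Tbpl1 they were Tent5b, Cenpv and Fam216a (0.990, 0.989 and 0.988). For Sox30 they were Acsl1, Azin2 and Actl11 (0.977, 0.976 and 0.976), and for Crem Cox17, Stk39 and Spata9 (0.960, 0.900 and 0.889). Sox5-201 was most like Pnpla2, Cfap157 and Eif5a (0.922, 0.922 and 0.911) and Rfx2-202 most like Lca5l, Tram1 and Smg5 (0.871, 0.867 and 0.861). Taf7l, with its few reads, reached 0.719 with Mtch2, 0.710 with Scamp1 and 0.694 with Ppp1cc.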

How the data were processed

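Poly(A) RNA of 12 libraries was read by nanopore direct RNA sequencing, and the deposited table holds counts of reads per reference transcript, made by the authors with Guppy base calling, minimap2 (2.20-r1061 in the submitters' processing notes) and an mm10 GENCODE transcriptome, without molecular identifiers. The authors' DESeq2 tables gave gene symbols (mgi_symbol) only, and their fold change and p-value columns, which hold the authors' comparisons, were not used. Totals ran from 337287 to 1359427 counts per library, which sets the precision, and 3 counts were taken as the floor. No pair of libraries held identical values.

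Groups came from the sample labels, 3 libraries in each of 4 groups, each a pool of 3 mice. The members and gene lists were chosen with earlier results of these data known. Contigs with at least 10 counts in at least 2 libraries of a group were tested (11831), with TMM factors and edgeR 4.0.16 quasi-likelihood F-tests (R 4.3.3), 1 mean per group over all 12 libraries, for ES against RS within each genotype, dcat/dcat against wt/wt within each stage, and the interaction. Values of q are Benjamini-Hochberg adjusted over all contigs, and at most 0.05 was called. Shares of a gene's reads were tested by an exact permutation test in genes with at least 20 reads in every library (python 3.11.15, scipy 1.17.1). Fits and share tests were tested on simulated data.

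Every member contig is named. From the lists, up to 4 genes per comparison were named, those of lowest p among contigs called and not overlapping. The genes most like a member were the 3 of highest r. Transcript structures came from GENCODE vM21, in which 11348 of the contigs were found, and promoters from RefSeq.

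Per the study's methods RS and ES were sorted from the same mice, so same-numbered libraries of a genotype were taken as pairs of stages, though that a number names 1 pool in both is not spelled out. Deviations from group means over 2744 contigs correlated at r 0.50 to 0.69 in these pairs in dcat/dcat and at 0.57, 0.65 and, for number 3, -0.31 in wt/wt. Between genotypes, whose mice shared sorting sessions, r was 0.67 to 0.87 in RS and 0.06 to 0.75 in ES. Alternatives were RLE factors, totals alone, other filters, DESeq2 1.42.0, the compared groups only, counts summed by gene, replicate blocks and leaving out each library. Leaving out the libraries numbered 1, label swaps within pairs for shares, and the list counts under other scalings were chosen after seeing the data.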

Additional observations from a re-analysis of the deposited data

How the results depend on the processing

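Over all 16 contigs the number of members called between stages was 7 to 10 in wild type and 7 to 12 in dcat under the other scalings, filters, tools and blocks, and 5 to 8 and 6 to 7 when 1 library was left out (15 or 16 contigs tested). Summed by gene, 4 of 7 genes were called in dcat and 5 in wild type. With at least 10 counts in every library only 9 members were tested, of which 9 were called in wild type and 8 in dcat, against 2588 and 2562 of 3719 contigs. Scaling factors were recomputed there, and the log2 changes of all 9 lay lower than in the main fit, in both genotypes. DESeq2 called 7 members in each genotype, against 4278 and 4426 of 11831 contigs. Without the libraries numbered 1, a choice made after seeing the data, 8 and 7 of 15 were called. Between genotypes and for the interaction 0 members were called under every alternative. For contig shares the 2 contigs of Fhl5 were called between stages, where 10.7% of all 3840 contigs tested were called. Their shares add up to the whole gene, so this is 1 result. The number called was 0 when any 1 library was left out, and 0 when labels were swapped within same-numbered libraries (smallest possible p 0.031). These alternatives allow fewer arrangements, and their q depends on how many other contigs reach the smallest possible p.

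With the replicate number as a block shared by all groups 9 members were called in each genotype, while contigs called in all went from 4766 to 6105 in wild type and from 4849 to 6145 in dcat. Between genotypes it called 3 contigs in RS and 1 in ES, 0 of them members. With a block within each genotype 8 members were called in wild type and 9 in dcat, and with a block within each stage 5 contigs in RS and 12 in ES, again 0 members. Beside Tbpl1-202 and Sox5-202 in wild type and Sox5-204 in dcat, the block changed no call of a member.

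Directions that reversed were all of values that had not been called. With totals alone the stage change became log2 -0.39 for Sox5-205 in wild type, and -0.56 for Sox5-214 and -0.27 for Sox5-205 in dcat. When 1 library was left out, the stage change in wild type ran from log2 -0.84 to 0.13 for Sox5-201, from -0.31 to 0.15 for Sox5-214 and from -0.86 to 1.05 for Sox5-205. In dcat it ran from -0.34 to 0.66 for Sox5-214, from -0.32 to 0.91 for Sox5-205, from -1.50 to 0.021 for Sox5-202 and from -0.12 to 0.017 for Rfx2-202. The genotype difference in shares ran from -2.67 to 1.91 points for Fhl5-202 and from -0.65 to 7.86 points for Tbpl1-202. The cause was not tested. Taf7l and Sox5 contigs had 0 to 58 reads in a library.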
